A study of Hevea brasiliensis with 6 samples.

Results

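After 1 h at 4 °C, leaves of the rubber tree clone ‘93-114’ and of the clone ‘Reken501’ were compared through 1 library of each, which are 2 of the 6 libraries of the series. The study describes ‘93-114’ as cold-tolerant and ‘Reken501’ as cold-sensitive, and this comparison asks how the leaf transcripts of the clones differ early in chilling. The plants were 1 year old with 2 extension units, the flushes of stem and leaf that a rubber tree adds one at a time. Each library was made from total RNA of a pool of leaves of 3 plants of 1 clone, so the spread between plants was averaged into a single value and cannot be recovered. The other libraries come from control leaves of each clone, kept without cold stress, and from leaves after 24 h at 4 °C. They are used below only to show whether a difference seen after 1 h was also present at another time. A difference between these clones can come from any of their genetic differences, since each is 1 genotype. It can also come from the pool or the library, which cannot be told apart from the clone.

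The rubber tree is a tropical species that is easily injured by temperatures which temperate plants survive. In plants, chilling makes membranes more rigid and raises calcium in the cell, and transcription factors of the CBF/DREB1 family then switch on genes for protective proteins, sugars and membrane lipids within hours. Chaperones of the heat shock protein families and the enzymes that remove reactive oxygen species belong to the same early response. None of these families could be located in the deposited tables, which list unigenes (assembled transcript sequences) by number. Of the unigene IDs, 0 match any of the 50196 genes in the RefSeq table. The differences are therefore described by abundance, length, assembly cluster and time, the leaf origin was not checked against marker genes, and no sequence could be printed.

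The libraries held 21.4 M fragments in ‘Reken501’ and 21.2 M in ‘93-114’ after 1 h, and the 6 libraries lay between 20.4 M and 21.9 M. A total of 159461 unigenes had at least 1 fragment in either 1 h library. Of these, 132835 (83.3%) were read in both, 14086 (8.83%) only in ‘Reken501’ and 12540 (7.86%) only in ‘93-114’. Most unigenes read in a single library had very few fragments. The library of ‘93-114’ after 1 h had 40951 unigenes with 1 to 4 fragments, against 33121 in ‘Reken501’.

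The fragments of chilled ‘93-114’ were gathered on fewer unigenes than those of chilled ‘Reken501’. The 145 most-read unigenes of ‘93-114’ held 50% of its fragments after 1 h, whereas ‘Reken501’ needed 525 unigenes to reach the same share. In the other libraries this number was 788 for control ‘93-114’, 708 for control ‘Reken501’, 156 for ‘93-114’ after 24 h and 445 for ‘Reken501’ after 24 h. The number was thus lowest in ‘93-114’ at both times of cold and highest in its own control library. The 100 most-read unigenes of each library took 45.8% of the fragments in ‘93-114’ and 35.1% in ‘Reken501’ after 1 h. The 95% Wilson intervals reached 0.0212 and 0.0202 percentage points to each side, and they cover counting error only. Of these sets of 100, 70 unigenes were in both. The 100 unigenes that lead in ‘93-114’ held 32.1% of the fragments of ‘Reken501’ after 1 h and 29.8% of those of control ‘93-114’.

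**Figure D1:**
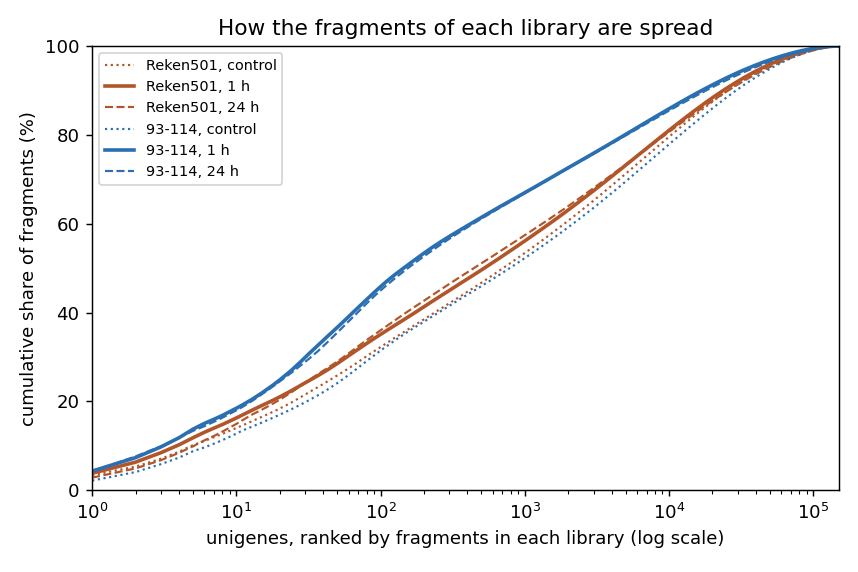
Cumulative share of the fragments (vertical axis, percent) held by the most-read unigenes of each library, ranked within that library (horizontal axis, log scale), with ‘Reken501’ in brown and ‘93-114’ in blue. The 1 h and 24 h curves of ‘93-114’ run above the other 4 libraries between about the 100th and the 1000th unigene, and reach 45.8% and 45.0% at 100 unigenes.

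Because fragments are counted relative to a library total, this concentration enters every ratio between the clones. With library totals, the log2 ratio (‘93-114’ over ‘Reken501’) had a median of -0.53 across 84682 unigenes that averaged 10 or more fragments, and 66.8% of them were lower in ‘93-114’. TMM factors, which set the bulk of unigenes to no change, raised every log2 ratio by 0.48 and brought the median to -0.04, with 51.6% below 0. Which scaling is closer to the amounts of RNA in the leaf cannot be told from these counts, nor can fewer cells of a type be told apart from less RNA in each. A unigene was called when its fragments differed by an exact conditional binomial test at an adjusted p of at most 0.001 and by at least 2-fold. With library totals 8571 unigenes were called higher (5.37% of those tested) and 18705 lower (11.7%) in ‘93-114’. With TMM factors 13050 were higher (8.18%) and 9578 lower (6.01%), so that the share of calls that was higher moved from 31.4% to 57.7%. This test compares the fragments of the 2 libraries. It holds no spread between pools of leaves, and with 1 pool a side these differences have no replicate check.

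The unigenes described next were called the same way with library totals and with TMM factors. There were 8571 higher (5.37%) and 9578 lower (6.01%) in ‘93-114’ after 1 h. The median log2 ratio of the higher ones was 2.53 with totals and 3.01 with TMM factors. For the lower ones these medians were -2.58 and -2.10. In 1238 of the higher and 1076 of the lower unigenes the other library had 0 fragments, so their ratios are not measured sizes. With those set to 3 fragments the medians were 2.44 and -2.58 with totals. Their median length was 926 bases for the higher and 995 bases for the lower unigenes, against 428 bases over all tested unigenes. A call needs fragments, and 60005 tested unigenes (37.6%) had fewer than the sum of 14 fragments that was the least that could be called. With 10 or more fragments on average, 7.36% were higher and 8.12% lower at lengths of 150 to 250 bases, 10.2% and 13.3% at 1000 to 2000 bases, and 10.9% and 11.6% from 2000 bases.

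The balance between the directions differed between classes of abundance, in no single order, and it depends on the rule for calls. Here the higher unigenes are those called with totals and the lower ones those called with TMM factors, the stricter scaling for each side. In the largest class, 39316 unigenes averaging 10 to 30 fragments, 6.39% were called higher and 5.76% lower in ‘93-114’. With totals alone, called or not, 15.3% of this class were at least 2-fold higher and 33.7% at least 2-fold lower. By that measure more unigenes were lower than higher in every class except the most abundant. From 30 to 100 fragments, 11.7% of 26364 were higher and 15.3% lower. In the class of 100 to 300 fragments on average, with 11952 unigenes, 12.8% were higher and 17.7% lower. From 300 to 1000 fragments 12.1% were higher and 16.0% lower, and from 1000 to 3000 fragments 13.4% and 12.4%. Among the 419 unigenes with 3000 to 10000 fragments, 17.2% were higher and 9.07% lower. Among the 199 most abundant, with at least 10000 fragments, 62 (31.2%) were higher and 6 (3.02%) were lower, and the median log2 ratio was 0.13 with totals and 0.61 with TMM factors. In all other classes from 10 fragments upward the median was negative with totals, between -0.61 and -0.31. The most abundant class was thus the one in which ‘93-114’ lay above ‘Reken501’ under both scalings.

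**Figure D2:**
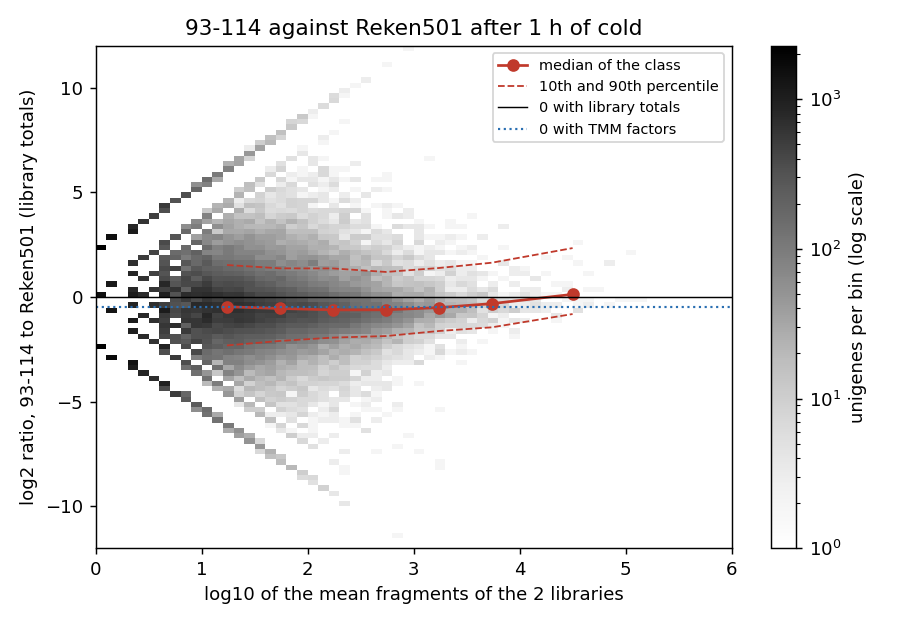
Log2 ratio of ‘93-114’ to ‘Reken501’ after 1 h of cold with library totals (vertical axis) against the log10 mean fragments of both libraries (horizontal axis), with the number of unigenes per bin in grey and unigenes under a mean of 1 left out. Red points are the medians of abundance classes, which run from -0.46 at 10 to 30 fragments to 0.13 from 10000 fragments, dashed lines are the 10th and 90th percentiles, and the straight grey rays on the outer sides are unigenes with 0 or very few fragments in one library.

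To find the unigenes that carried the concentration, the CPM of each unigene (its fragments per 1000000 fragments of the library) were subtracted between the libraries. The unigenes higher in ‘93-114’ held an excess equal to 31.2% of a library, which the unigenes higher in ‘Reken501’ offset by construction. On the side of ‘93-114’, 42 unigenes carried 50% of this excess. On the side of ‘Reken501’ it took 1289 unigenes. The 42 unigenes were chosen from the 1 h libraries, so their values there are a description. They held 27.3% of the fragments of ‘93-114’ and 11.6% of those of ‘Reken501’ after 1 h. In the libraries that did not choose them, they held 12.3% of control ‘93-114’ and 10.3% of control ‘Reken501’, and 22.6% of ‘93-114’ and 12.6% of ‘Reken501’ after 24 h. Their share was thus higher in ‘93-114’ at both other times, and by less in control leaves than after 24 h. Singly, 33 of the 42 were higher in ‘93-114’ in control leaves and 41 after 24 h, with library totals. The base differed between these times. Over unigenes averaging 10 or more fragments, the median log2 ratio with totals was 0.11 in control leaves and -0.46 after 24 h. Of the 42, 37 were called higher under both scalings, 22 are contigs of clusters, and their median length was 2215 bases.

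The 1289 unigenes on the side of ‘Reken501’ held 38.1% of its fragments and 22.5% of those of ‘93-114’ after 1 h. They held 36.1% and 27.9% in control leaves, and 35.3% and 27.0% after 24 h, in the same order. This share was higher in ‘Reken501’ at every time. Of the 1289, 540 were called lower in ‘93-114’ under both scalings, and 214 were higher in ‘93-114’ in control leaves.

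Among the called unigenes, the 2 with the largest difference in CPM are given for each direction, since the files name no genes. Unigene25450_All, 3983 bases long, had 9472 CPM in ‘Reken501’ and 20585 in ‘93-114’ after 1 h. It had 7328 and 8612 in control leaves, and 8696 and 15477 after 24 h. The level of ‘93-114’ was highest after 1 h, and ‘Reken501’ stayed between 7328 and 9472. The 1 h difference was 2.17-fold, with a counting interval of 2.16 to 2.18 at the 95% level, and the control difference was 1.18-fold (1.17 to 1.18). Unigene12214_All, 1813 bases long, had 1225 CPM in ‘Reken501’ and 8432 in ‘93-114’ after 1 h. It had 1196 and 1512 in control leaves, and 1900 and 5869 after 24 h. This was a difference of 6.88-fold (6.80 to 6.97) after 1 h, against 1.26-fold (1.24 to 1.29) in control leaves and 3.09-fold (3.05 to 3.12) after 24 h. In both unigenes the clones were close in control leaves and apart in the cold, and ‘93-114’ was 2.39 and 5.58 times its own control level after 1 h. All folds here and in the next paragraph use library totals, and the counting intervals do not cover the choice of scaling. With TMM factors the log2 ratios of these 2 unigenes after 1 h were 1.60 and 3.26, against 1.12 and 2.78 with totals.

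The largest differences in the other direction were of another kind. CL518.Contig2_All, 1229 bases long, had 3109 CPM in ‘Reken501’ and 24.6 in ‘93-114’ after 1 h. It had 2974 and 16.7 in control leaves, and 4295 and 18.4 after 24 h. It was lower in ‘93-114’ by 126-fold (116 to 138) after 1 h and by 179-fold (160 to 199) in control leaves. CL14631.Contig2_All, 1036 bases long, had 2768 CPM in ‘Reken501’ and 3.95 in ‘93-114’ after 1 h. It had 2047 and 4.37 in control leaves, and 1720 and 3.92 after 24 h. The 1 h difference was 700-fold (565 to 878) and that in control leaves 468-fold (380 to 583). Both contigs were lower in ‘93-114’ by over 100-fold at every time, chilled or not.

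**Figure D3:**
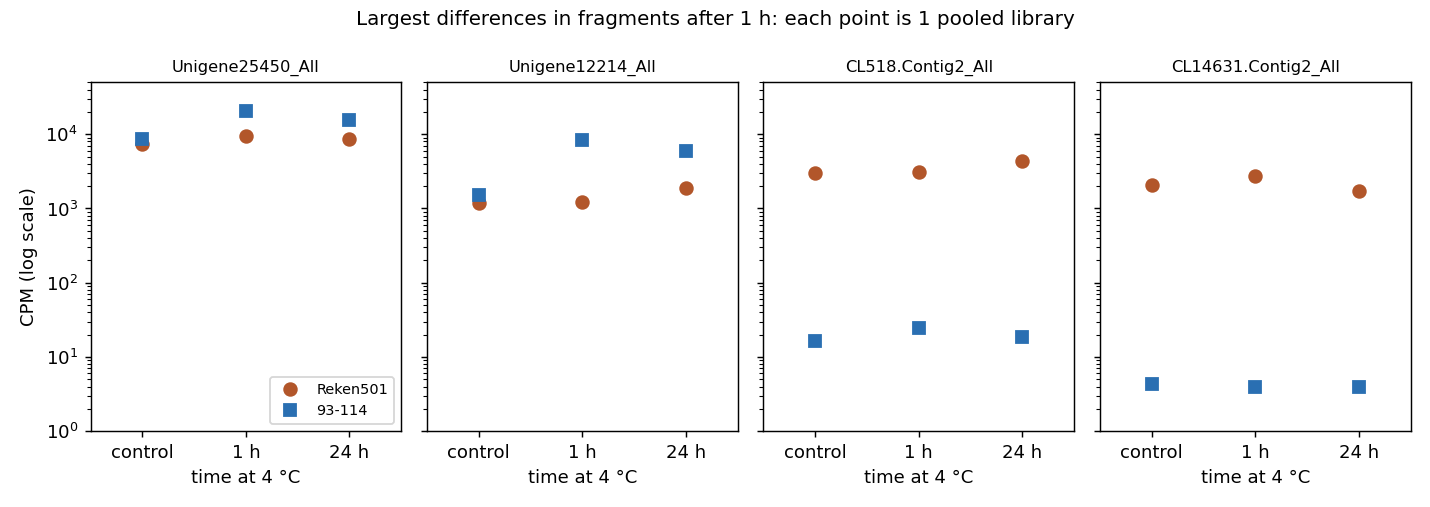
CPM (vertical axis, log scale) of the 4 unigenes in each of the 6 libraries, by time at 4 °C (horizontal axis), with 1 point for each pooled library and therefore no error bars. In the panels of the 2 unigenes outside clusters the clones lie together at control and apart after 1 h (1225 against 8432 for Unigene12214_All), while in the panels of the 2 contigs they are apart at every time.

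The contigs of a cluster are similar sequences, and it is uncertain how the counting divided fragments among them, so the values of single contigs are uncertain. When the 4 contigs of CL518 were summed, ‘Reken501’ had 3799 CPM and ‘93-114’ 6082 after 1 h. The log2 ratio of the sum was 0.68 with totals, where it was not called, and 1.16 with TMM factors, where it was called higher in ‘93-114’. Both are in the opposite direction to that of CL518.Contig2_All. At the other times the sum was lower in ‘93-114’, as the contig was. It had 2282 CPM against 3773 in ‘Reken501’ in control leaves, and 4128 against 6064 after 24 h. After 1 h, CL518.Contig2_All made up 81.8% of the sum in ‘Reken501’ and 0.405% in ‘93-114’. A longer contig of the same cluster (3602 bases) had 6019 CPM in ‘93-114’ against 673 in ‘Reken501’. In CL14631, with 2 contigs, the sum after 1 h was 4944 in ‘Reken501’ and 2914 in ‘93-114’. Its log2 ratio was -0.76 with totals and -0.28 with TMM factors and was called under neither. CL14631.Contig2_All was 56.0% and 0.136% of this sum. The sum was also lower in ‘93-114’ in control leaves (2141 against 3618 CPM), and higher there after 24 h (4550 against 3050). In both clusters the sums differed far less between the clones than the named contigs did. The other contig of CL14631 had 2177 CPM in ‘Reken501’ and 2910 in ‘93-114’ after 1 h. Its log2 ratio was 0.42 with totals, smaller in size than that of the sum and in the opposite direction, and it was not called.

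Contigs that moved in opposite directions occurred in other clusters as well. Of 15360 clusters with at least 2 tested contigs, 985 (6.41%) held both a contig called higher and a contig called lower in ‘93-114’ under both scalings. These made up 33.4% of the 2946 clusters with a higher contig and 23.5% of the 4187 with a lower one. Both kinds of cluster were common, and how many would hold both by overlap alone was not tested. In 844 of the 985 (85.7%), the sum of the contigs was not called the same way under both scalings, while 65 sums were higher and 76 lower. The opposite contigs were present without cold as well, in 1307 clusters of control leaves (8.49%) and in 903 after 24 h (5.81%). Of the 985 clusters, 685 were also opposed in control leaves, which is 69.5% of the 1 h clusters and 52.4% of the control clusters. Over all clusters, the sums were called higher in 984 of 16094 (6.11%) and lower in 1554 (9.66%), and with unigenes outside clusters added 4.55% of 109436 units were higher and 4.94% lower. For the single contigs these shares were 6.89% and 8.65%.

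Many of the differences called after 1 h were also called in control leaves. Of the 8571 higher unigenes, 4505 (52.6%) were called higher in control leaves too, where 7.18% of all tested unigenes were. They make up 39.5% of the 11409 higher unigenes of control leaves. Of the 9578 lower unigenes, 4649 (48.5%) were called lower in control leaves, against 5.81% of all tested, and they make up 50.4% of the 9221 called there. No library enters both contrasts. Without a threshold in control leaves, 89.3% of the higher and 86.9% of the lower unigenes had a control ratio on the same side of 0. Only 94 of the higher unigenes were called lower in control leaves, and 78 of the lower were called higher there. With TMM factors alone the shares also called in control leaves were 44.2% of 13050 higher and 52.0% of 9578 lower unigenes, where 7.18% and 6.64% of all tested were called. With library totals alone they were 54.7% of 8571 and 32.2% of 18705, beside 8.08% and 5.81% of all tested, so the share of the lower unigenes depended on the scaling.

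The larger the difference after 1 h, the more often it was called in control leaves. The same 2-fold limit applies at both times, so a small ratio can drop below it more readily than a large one. How much of the rise comes from this limit was not tested. Of the 2915 higher unigenes with a log2 ratio from 1 to 2 under whichever scaling gave the smaller value, 46.0% were called in control leaves, and of the 545 with a log2 ratio of 6 or more 91.2% were. For the lower unigenes the share was 32.9% of 4477 in the smallest class and 95.3% of 427 in the largest. The classes between them lay in order, at 48.2% and 62.0% for higher and at 55.2% and 69.6% for lower unigenes. After 24 h the smallest class of the higher unigenes was called the same way in 39.1% and the largest in 92.8%. In the largest classes, 421 of the 545 higher and 329 of the 427 lower unigenes had 0 fragments in the library with the lower level, where the ratio depends on the 0.5 fragments added. The clones thus differed in nearly all unigenes of the largest classes before any cold.

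**Figure D4:**
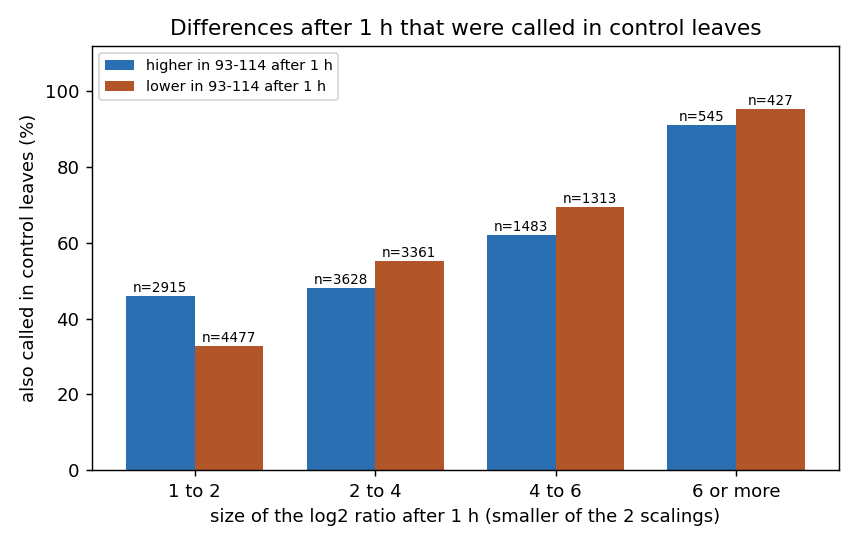
Share of the unigenes called after 1 h that were called in the same direction in control leaves (vertical axis, percent), by the size of the log2 ratio after 1 h (horizontal axis), for unigenes higher (blue) and lower (brown) in ‘93-114’, with the number of unigenes above each bar. The share grows from 46.0% to 91.2% for the higher and from 32.9% to 95.3% for the lower unigenes. The calls at both times use the same 2-fold limit, which small ratios miss more readily.

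Over all unigenes, the ratios between the clones at different times were related. Across 89593 unigenes averaging 10 or more fragments in the 4 libraries, Pearson's r between the log2 ratio in control leaves and after 1 h was 0.70 and Spearman's rho was 0.55. For 24 h and 1 h these were 0.77 and 0.67 across 87649 unigenes. These describe unigenes of single libraries, which share assembly and length and are not replicates. The median of the change in log2 ratio from control to 1 h was -0.60 with totals, and 71.3% of the unigenes had a lower ratio after 1 h than in control leaves. With TMM factors this median was -0.015 and 50.6% were lower. These factors set the bulk of unigenes to no change, so values near no shift follow by construction. They cannot tell whether the shift was present in the leaves. From 1 h to 24 h the ratio of a unigene was as often lower as higher (49.5% were lower after 1 h).

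**Figure D5:**
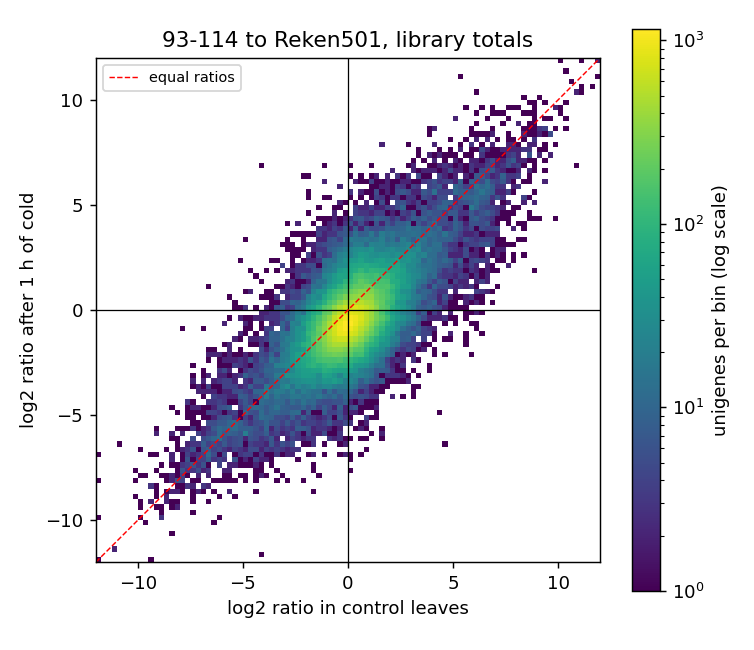
Log2 ratio of ‘93-114’ to ‘Reken501’ after 1 h of cold (vertical axis) against the same ratio in control leaves (horizontal axis), with library totals and the number of unigenes per bin in colour on a log scale. Ratios beyond the axes are drawn at their edge, and the bulk of unigenes lies below the dashed line of equal ratios, with a median shift of -0.60. With TMM factors, which set the bulk of unigenes to no change, it is -0.015.

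The unigenes called after 1 h and not in control leaves differed in their levels in both clones. For the 3960 higher unigenes of this kind, the median level in control leaves was 1.08 CPM in ‘Reken501’ and 1.67 in ‘93-114’. After 1 h it was 0.607 and 3.06. For the 4827 lower unigenes the medians were 3.25 and 2.75 in control leaves, and 4.29 and 0.988 after 1 h. The control and the 1 h libraries both chose these unigenes, so the medians at both of these times are a description. After 24 h, which did not choose them, the medians were 1.30 and 2.51 for the higher, and 3.29 and 1.28 for the lower unigenes. The medians thus lay apart in the same direction after 24 h, by less than after 1 h. Of all unigenes called after 1 h, 2838 of the higher (33.1%) and 3566 of the lower (37.2%) were called the same way at neither other time, and 3309 (38.6%) and 3389 (35.4%) at all times. After 24 h, 4537 of the higher unigenes (52.9%) and 4752 of the lower (49.6%) were called the same way, where 4.12% and 4.83% of all tested unigenes were (4.12% and 9.8% with library totals alone, 6.83% and 4.83% with TMM factors alone). These make up 67.7% and 60.5% of the calls after 24 h.

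Some unigenes were read in one clone only. At least 10 fragments in ‘93-114’ and 0 in ‘Reken501’ were counted on 1950 unigenes after 1 h (1.22% of those tested), and the reverse on 2592 (1.63%). Their fragments came to 0.365% and 0.386% of the libraries, with medians of 16 and 15 fragments. Of the 1950, 805 (41.3%) had 0 fragments in ‘Reken501’ at the other times too, and of the 2592, 908 (35.0%) had 0 in ‘93-114’. With at least 100 fragments, 110 and 108 unigenes remained, and 64 (58.2%) and 55 (50.9%) of them were at 0 in the other clone at all times. A count of 0 allows up to 3 fragments, or 0.140 CPM in ‘Reken501’ and 0.141 in ‘93-114’ after 1 h, which covers counting error only. Few were read in their own clone at 1 h alone, since 3 of the 1950 and 15 of the 2592 had 0 fragments in both other libraries of that clone. Of the 1950, 766 (39.3%) are contigs of clusters, and for 696 of these another contig of the cluster was read in ‘Reken501’. For the 2592 these numbers were 906 (35.0%) and 841. Neither share in clusters is above that of all tested unigenes, of which 66119 of 159461 are contigs. How often another contig was read in the other clone was not counted over all contigs.

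The nearest measure of error in these data is the difference between libraries of 1 clone, which holds the response to cold and the spread between pools together. For unigenes averaging 100 or more fragments in a pair, the interquartile range of the log2 ratio between the clones was 1.30 after 1 h, 1.11 in control leaves and 1.12 after 24 h. Within ‘Reken501’ it was 0.57 between control and 1 h and 0.60 between 1 h and 24 h. Within ‘93-114’ it was 0.88 and 0.55. After 1 h, 33.6% of the unigenes lay at least 2-fold from the median ratio between the clones, against 6.09% between control and 1 h in ‘Reken501’ and 17.6% in ‘93-114’. The clones after 1 h thus differed more widely than any pair of libraries of the same clone, of which the widest was 0.95 for ‘93-114’ at control and 24 h, and no test of this order is possible with 1 library per condition.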

How the data were processed

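The authors sequenced leaf RNA, filtered the reads and deposited raw fragment counts per unigene, with its length, in 4 tables. FPKM values deposited beside them differ by at most 5e-05 from those computed from count, length and library total, and were used only for that check. The methods describe reads mapped by Bowtie2 to genes of the rubber tree genome plus transcripts rebuilt by StringTie, with levels from RSEM. The deposited tables instead list numbered unigenes and clustered contigs with whole counts, so it is uncertain whether that method made them, and fragments of similar contigs could have been split. The ratios, p-values and false discovery rates of the authors' own comparisons were not used.

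Counts were joined by unigene ID, and an absent unigene was counted as 0. Each call used a two-sided exact conditional binomial test (the smaller tail doubled) with p adjusted by Benjamini-Hochberg across every unigene read in either library, an adjusted p of at most 0.001 and a log2 ratio beyond 1 or -1 after adding 0.5 fragments. Scaling was by library totals and by edgeR 4.0.16 TMM factors over the 6 libraries, in Python 3.11.15 with scipy 1.17.1 and in R 4.3.3. The 1 h pair by itself leaves no residual degrees of freedom for a quasi-likelihood test. Such a test of the clone effect over all 3 times, with time as a term, was added as an alternative after seeing the data. Fold intervals are exact and, like the Wilson intervals, cover counting error only. The calling was tested on simulated data, where it recovered set differences under counting error but also called unchanged unigenes once spread between pools was added. The set differences were larger than 2-fold and lay in well-read unigenes only. Recovery of smaller differences, or of differences in unigenes with few fragments, was not tested. Named unigenes are the 2 in each direction with the largest difference in CPM among those called under both scalings. Comparisons, members and lists were chosen with earlier results of these data known.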

Additional observations from a re-analysis of the deposited data

Results flagged for a closer look

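Between ‘93-114’ and ‘Reken501’, the log2 ratio had a median of 0.11 in control leaves and of -0.53 after 1 h of cold with library totals, on opposite sides of 0. Each time has a single library of either clone, so this difference was not tested. With TMM factors, which set the bulk of unigenes to no change, the medians were 0.0059 and -0.045.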

How the results depend on the processing

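Each condition has 1 library, so no replicate could be left out. No paired analysis was possible because the 1 h comparison holds 1 library of each clone and the labels give no replicate numbers that pair libraries. Over all 6 libraries the clones could be compared with time as a term, which tests a clone effect averaged over control, 1 h and 24 h and leaves 2 residual degrees of freedom. This edgeR quasi-likelihood test, chosen after seeing the data, used 90162 unigenes averaging 10 or more fragments and called 3201 higher and 3946 lower at an adjusted p of 0.001, and 7420 and 11476 at 0.05, with library totals. Of the unigenes called after 1 h, 7993 of the 8571 higher and 9252 of the 9578 lower were among the 90162. The shares that follow are of all 8571 and 9578. At 0.001 and under both scalings the test called 2651 higher and 2184 lower. Among them were 2608 of the 8571 higher (30.4%) and 2164 of the 9578 lower unigenes (22.6%), called the same way. At 0.05 these numbers were 5668 (66.1%) and 6118 (63.9%), where 7361 higher and 8265 lower of all 90162 were called under both scalings. At either threshold 0 were called the opposite way, and the 1 h libraries are in both tests. For the numbers of unigenes called after 1 h, a minimum mean of 10 fragments, 3 fragments added for the ratio and totals without the 100 most-read unigenes stayed within 1.5 times of 8571 higher and 18705 lower, and the last of these moved the share higher to 46.1%. TMM factors gave 13050 and 9578, whether taken over 6 libraries or from these 2, and DESeq2 1.42.0 size factors gave 13071 and 9561. A log2 ratio of 2 gave 5656 and 9292, an adjusted p of 0.05 gave 14153 and 30915, and summing contigs per cluster gave 4980 and 11689. With edgeR's exact test and an assumed coefficient of variation of 0.2 the numbers were 3984 and 6153, and with 0.4 they were 520 and 628, so most calls rest on a spread between pools that was not measured. The median log2 ratio was -0.045 with both kinds of TMM factors, -0.043 with DESeq2's, -0.25 with totals without the 100 most-read unigenes, -0.59 from a mean of 100 fragments, -0.47 with no minimum and -0.48 with 3 fragments added. Unigenes read only in ‘93-114’ and only in ‘Reken501’ numbered 455 and 553 from 30 fragments, 3001 and 4563 with up to 1 fragment in the other library, and 1239 and 1746 after summing contigs. With no threshold in control leaves, 7650 higher and 14763 lower unigenes of 1 h lay on the same side there, against 4689 and 6029 called there with library totals. With a log2 ratio of 2, 622 clusters had contigs called in opposite directions, against 1337 with a ratio of 1 and library totals. The 10 and the 1000 most-read unigenes held 16.3% and 56.1% of the fragments in ‘Reken501’, and 18.5% and 67.0% in ‘93-114’. The 4 named unigenes were chosen among those called under both scalings, so their calls under TMM factors are no check. Summing the contigs of CL518 turned the 1 h direction of CL518.Contig2_All to 0.68, or 1.16 with TMM factors. Except where the setting itself takes in fewer or more unigenes, the cause of a change was not tested.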
